A study of Mus musculus with 24 samples.

Results

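RNA of the urogenital sinus (UGS) was compared between untreated male C57/Bl6J mouse embryos and their untreated female littermates, all taken at 17.5 days post conception (dpc). The comparison was made of every array titled as male versus female, 10 of the 24 arrays of the series. They held 5 pairs of RNA pools, and each male pool was hybridised directly against a female pool on a 2-colour Agilent whole mouse genome array and again with the dyes exchanged. Ratios were turned to male over female, and the 2 arrays of a pair were averaged. Of 24715 genes tested, 641 on the X and Y chromosomes and 6711 that could not be placed on a chromosome were left out. This left 17363 autosomal genes. The 12 h group that is set beside the sexes below came from female embryos. Their mothers received dihydrotestosterone (DHT, an androgen) at 50 mg/kg or vehicle at 16.0 dpc. A 6 h DHT group of the series, treated at the same dose and age, is not described but also entered the fit. Each pool held tissue of several embryos whose number is not given, embryos were sexed by their gonads, and accessory ducts were dissected away. No label says whether different pools came from different litters, so p-values measure spread between pairs of pools. That spread was estimated over all 12 pair averages of the series, DHT pairs included. The male and female pools differed in sex chromosomes as well as in gonadal hormones, and androgen cannot be told apart from the other differences between the sexes.

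The UGS is a tube of endodermal epithelium wrapped in mesenchyme, from which the prostate buds in males and part of the lower genital tract forms in females. Testosterone from the fetal testis is turned into DHT by Srd5a2, and the mesenchyme that responds to it then induces the epithelium to bud, through secreted signals that pass in both directions. The Wolffian ducts, which become the epididymis, vas deferens and seminal vesicle, are kept by testosterone, while the Mullerian ducts regress in males when anti-Mullerian hormone acts on its receptor Amhr2.

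Sex-linked genes matched the labels in all 5 pairs. Xist had log2 ratios from −5.91 to −4.99 and Eif2s3y from 2.14 to 2.88, with no overlap between male and female pools. All 30 epithelial identity genes and all 33 mesenchymal matrix genes were well above background in both sexes on all 10 arrays. Neither of the 2 measured seminal vesicle secretory genes was. The same mark was reached by 21 of 22 skeletal muscle, 16 of 17 neuron and Schwann cell and 3 of 9 intestine genes. Such counts do not identify the tissue. Median spot signals were 102.4 to 139 in Cy3 and 98.14 to 115.1 in Cy5. The dye-swapped array of pair 1 had 3.96% of its spots marked as outliers, against at most 0.135% on the others. Across genes, the 2 arrays of a pair correlated at r = 0.41 in pair 1 and 0.78 in pair 3, the extremes of the 5.

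Males and females differed in many autosomal genes, mostly by small amounts. Male pools had more RNA of the retinaldehyde dehydrogenases Aldh1a1 and Aldh1a3, of 28 of 81 measured genes of the epithelial lists, 9 bud regulators among them, and of 7 of 21 androgen-responsive genes. Of the same lists, 2 epithelial and 2 androgen-responsive genes were lower in males. Female pools had more of Esr1 and of 15 of 33 stromal matrix genes. Of 12 Mullerian genes, 3 were higher in females, Amhr2 and Wnt7a among them, and 1, Wnt4, was higher in males. In limma 795 autosomal genes were higher in males (4.58%) and 815 lower (4.69%) at an adjusted p under 0.05, 1610 in all, or 9.27% of the genes tested. Of these, 722 and 742 had the same sign in all 5 pairs. The median absolute log2 ratio of the called genes was 0.265, and 46 genes were over 2-fold higher and 18 over 2-fold lower. The count was 992 without pair 4, and 761 when the 5 pairs were fitted without the DHT arrays that otherwise add to the estimate of spread. With median centring in place of loess, 472 genes were higher and 822 lower, so that the share higher was 36.5% in place of 49.4%.

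**Figure D1:**
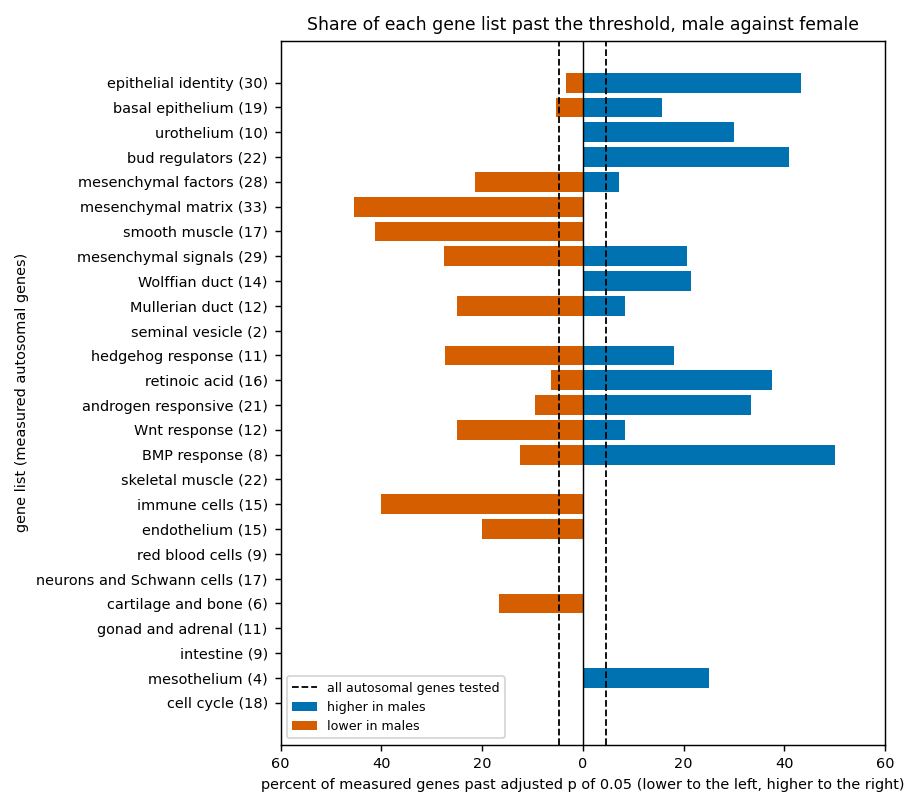
Horizontal bars give the percent of measured genes in each of 26 gene lists that passed an adjusted p of 0.05, higher in males to the right and lower to the left; the number of measured genes stands in parentheses. Dashed lines mark the shares over all autosomal genes, 4.58% higher and 4.69% lower; mesenchymal matrix lies only to the left and bud regulators only to the right.

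Genes of general epithelial identity that passed were higher in males, with 1 exception. Of 30 genes measured, 13 were higher, 1 was lower and 16 did not pass, and 27 had positive ratios; the median log2 ratio was 0.26, beside 0.00 for all autosomal genes. In bulk tissue, fewer cells of a type and less RNA per cell cannot be told apart. Cldn4, a claudin of the tight junction, had log2 ratios of 0.75, 0.49, 0.64, 0.60 and 0.72 in pairs 1 to 5 (mean 0.64, SD 0.10, adjusted p = 0.000451). All 5 pairs lay close together for this gene, although the male and female pools overlapped in signal across pairs. Krt7, a keratin of simple epithelium, was at 0.36, 0.79, 0.86, 0.61 and 0.57 (adjusted p = 0.00116), with the male pools all above the female pools, a separation found for 4.04% of autosomal genes (701).

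Cdh1, which encodes E-cadherin, was higher at 0.54 (SD 0.24, adjusted p = 0.0186) and Epcam, an epithelial adhesion molecule, at 0.45 (SD 0.26, adjusted p = 0.00986). The keratin Krt19 (0.45), the claudins Cldn7 (0.42) and Cldn3 (0.39), the epithelial factor Elf3 (0.41) and the protease inhibitor Spint1 (0.40) were higher as well. Cldn6, an embryonic claudin, was the 1 member lower in males, at −0.24 (adjusted p = 0.0413); it was named after its value was seen. The largest ratio that missed the threshold was that of Krt8, the keratin of luminal cells, at 0.30 (adjusted p = 0.341). It stood at 1.19 in pair 2 and between −0.24 and 0.31 in the others, so that a single pair held most of its excess.

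The mean ratio of the epithelial identity list was 0.05, 0.28, 0.42, 0.39 and 0.17 in pairs 1 to 5. Pair 1 showed almost no excess and pairs 3 and 4 the most. The list had 4 genes higher and 1 lower without pair 4, 5 and 1 without pair 3, 8 and 0 without pair 2 or without pair 5, and 16 and 0 without pair 1. Only 4 of its 14 calls held in all 5 of these fits; for Cldn3 the adjusted p rose to 0.118 without pair 4. Under median centring the list had 5 genes higher and 1 lower.

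**Figure D2:**
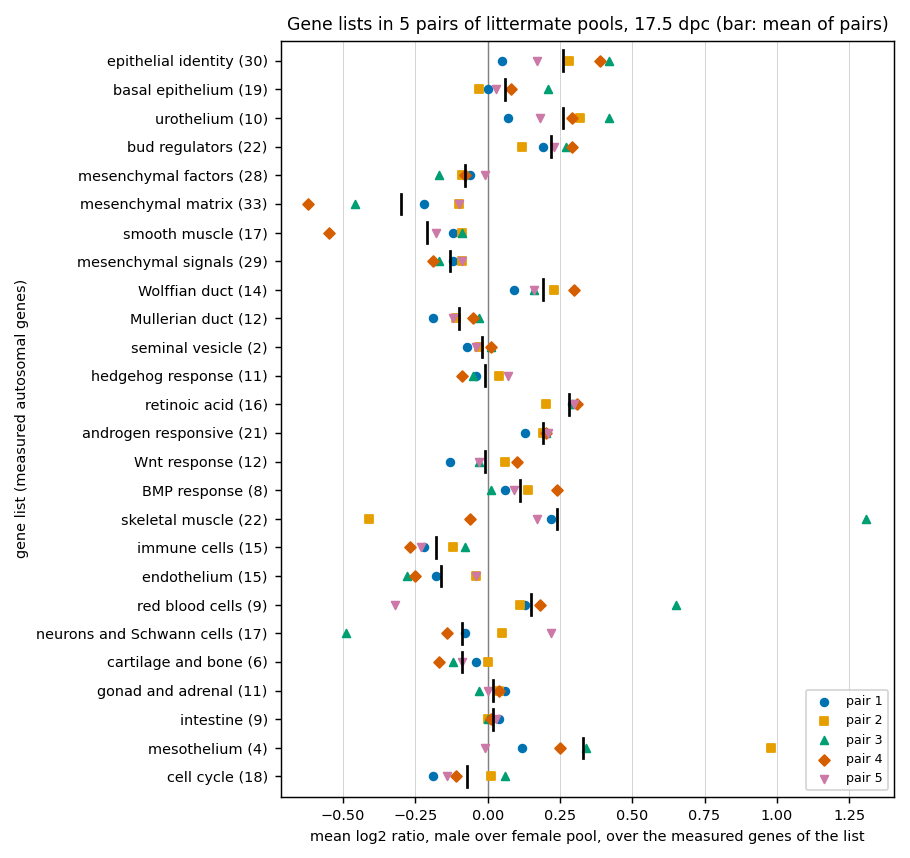
Points give the mean log2 ratio of male over female pool over the measured genes of each list in each of the 5 pairs, and the black bar the mean of the pairs. The matrix list lay below 0 and the bud regulator list above 0 in every pair; skeletal muscle ranged from −0.41 in pair 2 to 1.31 in pair 3.

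Basal and urothelial genes did not move as one. The basal layer holds the progenitors of the UGS epithelium, and its defining genes Trp63 (0.15, adjusted p = 0.676), Krt5 (0.01, adjusted p = 0.99) and Krt14 (0.25, adjusted p = 0.208) did not pass. Of 19 basal genes 3 were higher, 1 was lower and 15 did not pass, with a median of 0.03. Krt15 was higher at 0.55 (SD 0.20, adjusted p = 0.0186), as was Itgb4, the hemidesmosome integrin, at 0.28 (adjusted p = 0.00577). Krt17, a keratin of activated basal cells, went the other way, at −0.60, −0.89, −0.83, −0.52 and −0.78 in pairs 1 to 5 (adjusted p = 0.00277). Every male pool was below every female pool for Krt17. The adjusted p of Krt15 was 0.0616 without pair 3, and without either pair 3 or pair 4 the list had 1 gene higher and 1 lower.

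Among urothelial genes, 3 of 10 were higher and 0 lower. Psca, a surface protein of urothelium and of prostate epithelium, stood out with log2 ratios of 0.86, 0.78, 1.29, 1.18 and 1.02, a 2.03-fold excess in males (adjusted p = 1e-06). The male pools, at log2 signals of 8.55 to 9.05, were all above the female pools at 7.68 to 7.87. Krt13, an intermediate layer keratin, was at 0.48 and the uroplakin Upk2 at 0.41 (adjusted p = 0.0335), while Upk1b, another uroplakin, did not pass at 0.38 (adjusted p = 0.167). Without pair 4 Psca alone of the list passed, and with pair 3 left out 1 gene was higher and 1 lower.

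Regulators of prostatic budding were higher in males or did not pass: of 22 measured, 9 were higher and 0 lower. Sox9, a transcription factor of growing bud tips, was at 0.58, 0.71, 1.12, 0.77 and 0.78 in pairs 1 to 5 (mean 0.79, SD 0.20, adjusted p = 1.35e-05). Etv4, a nuclear target of FGF signalling, was at 0.57, 0.68, 0.57, 0.84 and 0.72 (adjusted p = 3.07e-07). For both genes the male and female pools did not overlap.

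Gata3, a GATA factor active in urogenital epithelium, was higher by 0.62 with an SD of 0.09 (adjusted p = 4.82e-06). Shh, the epithelial ligand that signals to the mesenchyme, was at 0.35, 0.44, 0.76, 0.69 and 0.74 (mean 0.60, adjusted p = 0.000534); the excess was present within each pair, although male and female pools overlapped across pairs. Foxa1, a forkhead factor that opens chromatin for steroid receptors, was at 0.50 (SD 0.22, adjusted p = 0.0113). Fgfr2, the epithelial receptor for Fgf10, was at 0.46, Bmp7, a BMP ligand of the epithelium, at 0.22, and Hoxb13, a homeobox factor of the caudal UGS and prostate, at 0.22 with an SD of 0.06 (adjusted p = 0.002). Foxa2, another forkhead factor, had the largest ratio that missed, at −0.22 (adjusted p = 0.225). The mean of the list was 0.19, 0.12, 0.27, 0.29 and 0.23 in pairs 1 to 5, a narrower range than for epithelial identity genes. Of its 9 calls, 8 held whichever pair was left out; Bmp7 had an adjusted p of 0.0611 without pair 4.

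With the mean of the epithelial identity list in each pair as a covariate, which gives the ratio expected where that mean is 0, Sox9, Etv4 and Gata3 passed (adjusted p = 0.00109, 4.14e-05 and 0.000536). Shh was at 0.41 in that fit (adjusted p = 0.0503), Fgfr2 at 0.32 (0.0641), Hoxb13 at 0.13 (0.142), Bmp7 at 0.19 (0.224) and Foxa1 at 0.17 (0.441), and none of these passed. Bmp7 was thus close to its ratio without the covariate and Foxa1 far below it. In that fit 4 bud regulators were higher and 1 lower.

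**Figure D3:**
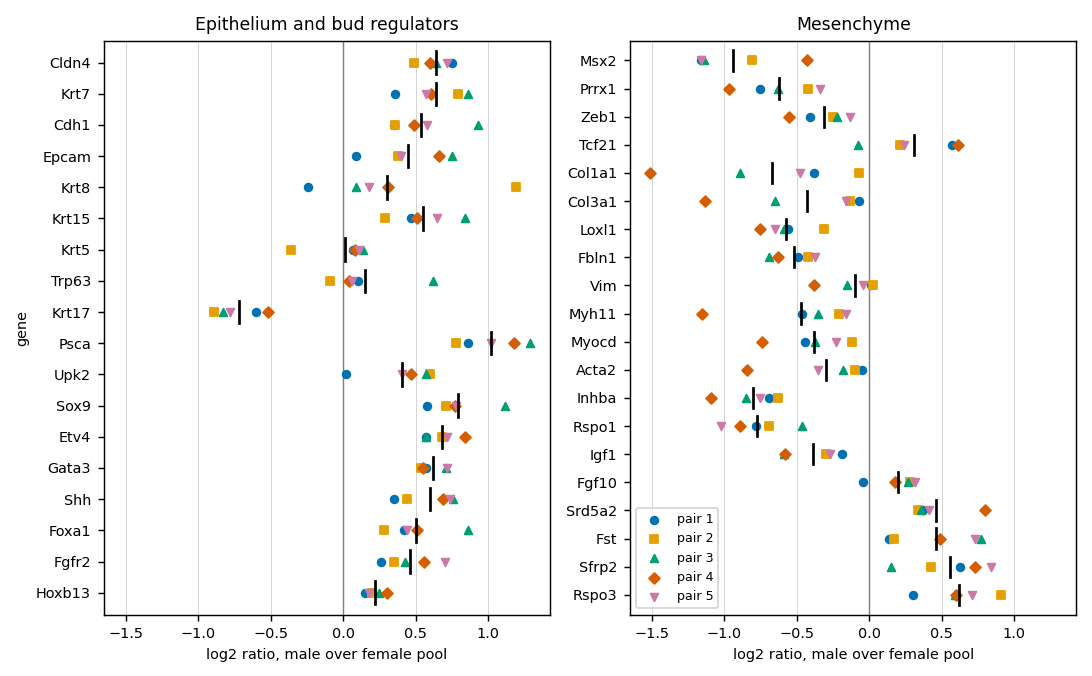
Points give the log2 ratio of male over female pool of each gene in the 5 pairs and black bars the mean, for genes of the epithelium and budding (left) and of the mesenchyme (right). Sox9, Etv4 and Gata3 were above 0 in every pair and Inhba and Rspo1 below 0 in every pair, while Krt8 and Col1a1 were spread widely by pair 2 and pair 4.

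Mesenchymal transcription factors mostly did not pass, and those that did were more often lower in males. Of 28 measured, 2 were higher and 6 lower. Msx2, a homeobox factor and target of BMP signalling, was at −1.16, −0.81, −1.14, −0.43 and −1.16 in pairs 1 to 5 (mean −0.94, adjusted p = 5.91e-05), with every male pool below every female pool. Prrx1, a homeobox factor of limb and connective tissue mesenchyme, was at −0.62 (adjusted p = 8.48e-05), and its 2 next brightest probes both read −0.49; its next probe read −0.01. Twist2 (−0.36), Zeb1 (−0.31), Prrx2 (−0.25) and Zeb2 (−0.21), all factors of mesenchymal cells, were lower. Tcf21, a factor of visceral stroma, was higher at 0.31 and Nr2f2, an orphan nuclear receptor of stroma, at 0.24. Some of these small differences rested on 1 pair: without pair 4 the adjusted p was 0.182 for Tcf21, 0.113 for Nr2f2 and 0.099 for Zeb2.

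Stromal matrix genes were lower in males in every case that passed. Of 33 measured, 15 were lower, 0 higher and 18 did not pass; 28 had negative ratios and the median was −0.30. Col8a1, a short-chain collagen of vessels and stroma, had the largest difference, at −0.97, −1.64, −1.85, −2.42 and −1.82 (mean −1.74, adjusted p = 1.81e-05), and its second probe read −1.26. Loxl1, an elastin crosslinking enzyme, was at −0.56, −0.31, −0.59, −0.75 and −0.65 (adjusted p = 3.18e-05), and Fbln1, an elastic fibre glycoprotein, at −0.52 with an SD of 0.14 (adjusted p = 5.78e-05). All 3 genes were below 0 in every pair, with the smallest ratio of Col8a1 in pair 1, of Loxl1 in pair 2 and of Fbln1 in pair 5.

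The fibrillar collagens varied with the pair. Col1a1, the main chain of type I collagen, was at −0.38, −0.07, −0.89, −1.51 and −0.48 (mean −0.67, SD 0.56, adjusted p = 0.012), and its dimmer probes read −0.49 and −0.13. Col3a1 was at −0.07, −0.13, −0.65, −1.13 and −0.16 (adjusted p = 0.0401). Pair 4 was the lowest for both, followed by pair 3, and the other 3 pairs lay nearer to no difference. Col14a1 (−0.66), Col5a1 (−0.43), Eln, which encodes elastin (−0.43), and the microfibril proteins Mfap4 (−0.42) and Fbln2 (−0.39) were lower too. Postn, the stromal matrix protein periostin, had the largest ratio that missed at −0.54 (adjusted p = 0.0617), and Vim, the mesenchymal intermediate filament, did not pass at −0.10. The mean of the list was −0.22, −0.10, −0.46, −0.62 and −0.10 in pairs 1 to 5. Of the 15 calls, 11 held whichever pair was left out; Col3a1 was at −0.25 without pair 4 and had an adjusted p of 0.116 without pair 3. The list had 4 genes lower when the 5 pairs were fitted alone and 3 with the epithelial mean as a covariate.

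Smooth muscle genes of the UGS wall showed the same direction, with 7 of 17 lower in males, 0 higher and a median of −0.23. Myh11, the smooth muscle myosin, was at −0.46, −0.21, −0.35, −1.15 and −0.16 (mean −0.47, adjusted p = 0.0198). Myocd, the coactivator that drives the smooth muscle programme, was at −0.38 (adjusted p = 0.00969). Pgm5, a protein of muscle adhesion sites (−0.34), and Tpm1, a tropomyosin (−0.25), were lower, although the other 2 Tpm1 probes, both bright, read 0.01 and 0.09, while Acta2, smooth muscle actin (−0.30, adjusted p = 0.0725), and Cnn1, calponin (−0.38, adjusted p = 0.141), did not pass. Pair 4 was far from the others here: the mean of the list was −0.55 in pair 4 and between −0.18 and −0.09 in the rest. Without pair 4 the list had 3 genes lower and Myh11 was at −0.30. It had 1 gene lower when the pairs were fitted alone, and 0 with the epithelial mean as a covariate or with the channels unpaired.

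Signals and receptors of the mesenchyme changed in both directions. Of 29 measured, 6 were higher and 8 lower in males, a called share of 48.3%, beside 9.27% of all autosomal genes. This was the largest share among the 4 mesenchymal lists, whose members were chosen with earlier results of these data known. Esr1, the oestrogen receptor, was at −2.26, −2.15, −2.03, −2.58 and −2.75 in pairs 1 to 5, 5.11-fold lower in males (adjusted p = 1.97e-07). Male pools had log2 signals of 6.83 to 7.72 and female pools of 9.41 to 10.08. Its second probe read −0.06 at a mean log2 intensity of 6.06, and the mean of both probes was −1.21. Srd5a2, the steroid 5-alpha-reductase, was higher at 0.37, 0.34, 0.36, 0.80 and 0.41 (adjusted p = 0.000554), with pair 4 above the rest and no overlap between the sexes.

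The secreted Wnt regulators split. Wif1, a Wnt-binding inhibitor, was higher at 1.44, 1.26, 1.51, 1.73 and 1.69 (adjusted p = 1.87e-07), and Dkk2, which blocks or modulates the Wnt co-receptor, was lower at −0.97, −0.99, −1.82, −1.23 and −1.06 (adjusted p = 8.02e-06). Rspo1 and Rspo3, R-spondins that amplify Wnt signals, differed in direction, at −0.77 (adjusted p = 0.000117) and 0.62 (adjusted p = 0.000142). A dimmer second probe of Rspo3 read 0.07. Sfrp2, a secreted Wnt antagonist, was higher at 0.56 (adjusted p = 0.00322). Male and female pools did not overlap for Wif1, Dkk2, Rspo1 or Rspo3.

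Of the activin and growth factor genes, Inhba, the activin subunit, was lower at −0.69, −0.63, −0.85, −1.09 and −0.75 (adjusted p = 2.34e-06), and Fst, which binds and blocks activin, was higher at 0.46 (adjusted p = 0.00562). Igf1, a growth factor of the stroma, was lower at −0.39 (adjusted p = 0.000707). Fgf10, the mesenchymal ligand of Fgfr2, was higher by 0.20 (adjusted p = 0.0161), and without pair 2 its adjusted p was 0.0638. Bmp4 (−0.13, adjusted p = 0.438), Wnt5a (−0.12, adjusted p = 0.0809) and Wnt2 (−0.24, adjusted p = 0.353), ligands of the UGS mesenchyme, did not pass. Of the 14 calls in the list, 12 held whichever pair was left out.

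Duct genes gave a mixed picture in a tissue from which ducts had been trimmed. Of 14 Wolffian duct genes, 3 were higher in males, 0 lower and 11 did not pass. Cdh16, a cadherin of kidney and Wolffian epithelium, was at 0.98, 2.06, 1.67, 2.30 and 1.34, a 3.18-fold excess (adjusted p = 8.48e-05). Male pools were at log2 signals of 9.22 to 10.20 and female pools at 7.90 to 8.24. Wnt9b, a ligand of the duct epithelium, was at 0.51 (adjusted p = 9.82e-05) and Hoxa10, a patterning gene of both duct systems, at 0.28 (adjusted p = 0.00119). The defining Wolffian genes were dim, with ratios close to 0. Pax2 was at −0.02 (SD 0.03) and was well above background on all 10 arrays in both sexes. Pax8 was at −0.05, well above background on 7 of 10 arrays in males and 10 of 10 in females. Ret was at 0.04, well above background on 6 of 10 arrays in males and 3 of 10 in females. All 3 Wolffian calls held whichever pair was left out.

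Mullerian genes also divided. Amhr2, the receptor for anti-Mullerian hormone, was lower in males at −1.25, −1.41, −0.78, −0.69 and −1.25 (mean −1.08, adjusted p = 4.13e-05), and Wnt7a, the Wnt ligand of Mullerian epithelium, at −0.77, −0.71, −0.88, −0.67 and −0.81 (adjusted p = 1.07e-06). Wnt4, which is needed for Mullerian duct formation and is also made in the UGS, was higher at 0.76, 0.82, 1.18, 1.10 and 0.86 (adjusted p = 4.94e-06). The pools of the 2 sexes did not overlap for any of these 3 genes. Wt1, a factor of coelomic and gonadal mesenchyme, was lower at −0.34, with an adjusted p of 0.102 without pair 1, and Hoxa11, the largest ratio that missed, was at 0.17 (adjusted p = 0.123). Of 12 Mullerian genes, 1 was higher and 3 lower. The only seminal vesicle genes measured, Svs1 among them at −0.03, were near background in both sexes.

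**Figure D4:**
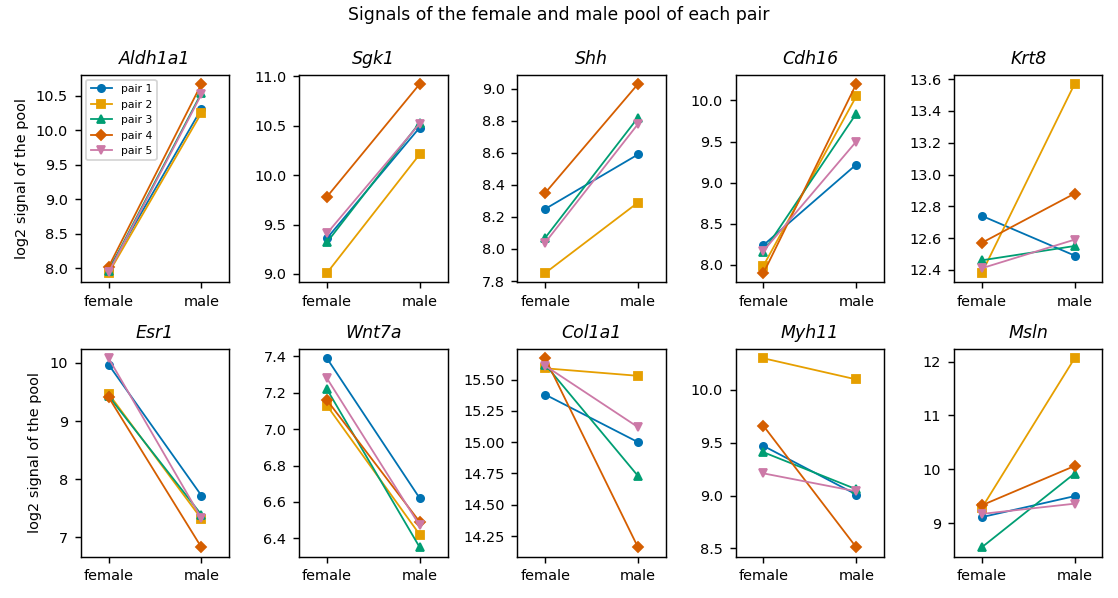
Lines join the log2 signals of the female and the male pool of each pair for 10 genes; each panel has its own vertical axis. The lines of Aldh1a1, Sgk1, Cdh16, Esr1 and Wnt7a all run the same way and leave the sexes apart, whereas Krt8, Msln and Myh11 each have 1 pair that departs from the rest.

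Retinoic acid, a vitamin A product made by retinol and retinaldehyde dehydrogenases and broken down by Cyp26 enzymes, patterns the UGS. Of 16 genes of its synthesis, transport and response, 6 were higher in males and 1 lower. Aldh1a1 was at 2.32, 2.33, 2.58, 2.65 and 2.59 in pairs 1 to 5, 5.64-fold higher in males, the largest excess among autosomal genes called with 1 sign in all pairs (SD 0.16, adjusted p = 1.87e-07). Female pools had log2 signals of 7.93 to 8.02 and male pools of 10.25 to 10.67. Aldh1a3 was at 1.65, 1.55, 2.63, 2.03 and 1.77 (adjusted p = 1.41e-05), and its dimmer probe read 0.55. Aldh1a2, the dehydrogenase of the mesenchyme, was higher by only 0.28 (adjusted p = 0.00749).

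Genes of other steps differed in both directions. Rdh10, which makes retinaldehyde, was higher at 0.37 and Dhrs3, which turns it back into retinol, at 0.38. Cyp26a1, which degrades retinoic acid, was at 0.57, 0.32, 1.41, 0.55 and 0.55 (adjusted p = 0.00193), with pair 3 far above the rest. Crabp1, a retinoic acid binding protein, was lower at −1.10, −1.25, −1.73, −0.66 and −1.14 (adjusted p = 1e-05). Rarb, a receptor gene and target of retinoic acid, was at −0.18 and did not pass (adjusted p = 0.0529). All 7 calls of this list held whichever pair was left out, and 8 of its 16 ratios were positive and 8 negative, with a median of 0.00. The mean of the list lay between 0.20 and 0.31 in every pair, with Aldh1a1 and Aldh1a3 far above the other members.

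Genes known to respond to androgen in prostate or prostate cancer cells changed in both directions, more of them upwards. Of 21 measured, 7 were higher in males, 2 lower and 12 did not pass, and all 9 calls held whichever pair was left out. Sgk1, a serum- and steroid-induced kinase, was at 1.12, 1.20, 1.22, 1.14 and 1.11, 2.23-fold higher in males, with an SD over pairs of 0.05 (adjusted p = 4.29e-07). The pools themselves varied more than the ratio: male pools had log2 signals of 10.21 to 10.92 and female pools of 9.01 to 9.78, still without overlap.

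The promoter sequences of 3 genes higher in males are shown because they hold matches to motifs of the factors named above. They come from RefSeq on GRCm38.p6, read 5′ to 3′ on the gene's strand within the 250 bases before an annotated start, and capitals mark the matches. Sgk1 has 6 such windows, 1 for each annotated start, and 1 of them holds the full palindromic androgen response element at bases −189 to −175 before its start. The element is made of 2 arms, AGAACA on each strand with 3 bases between, so it overlaps 2 single-arm matches; a further single arm lies at −242. Mmp7, a secreted protease described below, has 2 single arms on opposite strands in 1 of its 2 windows, and Foxa1 has a forkhead motif, TGTTTAC, on the reverse strand.
Sgk1, chr10:21993640-21993730, plus strand: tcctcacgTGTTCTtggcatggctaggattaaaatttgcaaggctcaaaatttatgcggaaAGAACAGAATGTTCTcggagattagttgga
Mmp7, chr9:7692094-7692168, plus strand: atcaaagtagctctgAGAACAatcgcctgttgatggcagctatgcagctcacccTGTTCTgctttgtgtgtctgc
Foxa1, chr12:57546231-57546267, minus strand: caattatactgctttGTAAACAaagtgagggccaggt

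The shares of promoters with a match were as follows, given as a description with no test. The full element was found in 3 of 32851 windows of this length (0.00913%), the single arm in 16.1% and the forkhead motif in 3.17%, searched on both strands. With the first listed window of each gene, the single arm was present at 12.1% of 596 genes higher in males, 10.2% of 617 lower and 12.4% of all 13727 tested autosomal genes with an entry. The full element was present at 0 of the higher and 0 of the lower genes in these windows. It was at 0.0% of all tested genes, so its share could not differ between them. The forkhead motif was present at 2.85%, 1.46% and 2.56% of the same genes. The Gli motif GACCACCCA, at 0.16% of tested genes, was present at 0 of the higher and 0 of the lower genes, and the GATA motif AGATAA at 4.87% and 6.16% of them, against 7.79% of all tested. A match is a run of letters and not a measured site.

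Klf15 and Klf9, Krüppel-like factors induced by steroid hormones, were higher at 0.91 (SD 0.10, adjusted p = 9.19e-06) and 0.50 (adjusted p = 0.000182); a dimmer second Klf15 probe read 0.06. Fkbp5, a co-chaperone of steroid receptors and a common readout of androgen action, was at 0.41, 0.77, 0.79, 0.81 and 0.76 (adjusted p = 3.97e-06), lowest in pair 1, and its other probes read 0.37 and 0.50. Errfi1, a feedback inhibitor of EGF receptors, was at 0.72 and also lowest in pair 1, at 0.50. Tmprss2, a surface protease of prostate epithelium (0.45), and Abcc4, a drug and cyclic nucleotide exporter (0.33, SD 0.07), were higher. Ndrg1, a stress and differentiation gene, and the kinase gene Camkk2 were lower at −0.45 and −0.19 (adjusted p = 0.0068 and 0.00504). Pmepa1, an inhibitor of TGF-beta signalling, had the largest ratio that missed, at −0.16.

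Hedgehog response genes moved little, in both directions. Ptch1, the receptor and a transcriptional target of the pathway, was higher at 0.45, 0.24, −0.03, 0.22 and 0.47 (adjusted p = 0.0311), and without pair 1 its adjusted p was 0.111. Hhip, a target that binds the ligand, was higher at 0.24 (adjusted p = 0.00542), while Gli1, the most direct target, was at 0.04 and did not pass (adjusted p = 0.787). Gas1, a co-receptor, was lower at −0.42 (SD 0.12, adjusted p = 0.000101), as were the inhibitor Sufu (−0.18) and the factor Gli2 (−0.15). Of 11 genes, 2 were higher and 3 lower, and the mean of the list lay between −0.09 and 0.07 in the 5 pairs.

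Wnt response genes did not share a direction either. Sp5, a transcription factor and direct target of beta-catenin, was higher at 0.50, 0.78, 0.96, 0.95 and 0.75 (adjusted p = 9.08e-06), with no overlap of the sexes. The feedback inhibitors Apcdd1 (−0.30), Nkd2 (−0.30) and Nkd1 (−0.24) were lower, but each lost its call when pair 1 was left out (adjusted p = 0.0689, 0.101 and 0.157). Ccnd1, cyclin D1, did not pass at −0.22 (adjusted p = 0.18). Of 12 genes, 1 was higher and 3 lower.

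Of 8 BMP response genes measured, 4 were higher, 1 was lower and 3 did not pass: the Id genes, inhibitors of helix-loop-helix factors and direct BMP targets, gave 0.44 for Id3 (adjusted p = 0.000404), 0.38 for Id2 (SD 0.06, adjusted p = 5.55e-05) and 0.32 for Id1 (adjusted p = 0.00137), and Atoh8, a helix-loop-helix factor, was at 0.19. Id4 was lower at −0.34 (adjusted p = 0.019), with an adjusted p of 0.0662 without pair 3. Both probes of Id1 read 0.32, and those of Id2 read 0.38 and 0.39. Smad7, a feedback inhibitor, did not pass at −0.11.

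For some further list members that passed, a dimmer probe that was well above background on all 10 arrays in both sexes read less than the probe reported. It read 0.04 for Sox9, 0.19 for Fgfr2, 0.08 for Ptch1, 0.16 for Rdh10 and 0.09 for Abcc4, all higher in males by the brightest probe. It read −0.01 for Col3a1, −0.03 for Pgm5, −0.07 for Zeb2, −0.02 for Sufu and −0.06 for Camkk2, all lower by the brightest probe. The second probes of Sox9 and Zeb2, brighter than these, read 0.76 and −0.19.

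Beyond the lists, the largest autosomal excesses in males included enzymes, membrane proteins and secreted proteins of epithelium. The 15 highest genes with 1 sign in all pairs lay between 1.49 and 2.49 on the log2 scale. No male pool overlapped a female pool for any of them. Choosing the largest ratios of 1 sign favours such separation, which 638 of the 1610 called genes showed. Nt5e, the surface enzyme CD73 that makes adenosine, was at 2.05, 1.72, 1.92, 1.95 and 2.09 (adjusted p = 3.8e-07), and Cyp1b1, a cytochrome P450 that oxidises steroids and retinoids, at 1.69 (SD 0.18, adjusted p = 2.8e-06). Sult1e1, the sulphotransferase that inactivates oestrogens, was at 1.62, 1.72, 2.27, 1.12 and 1.61 (adjusted p = 5.59e-06). Gsta3, a glutathione transferase with a role in steroid isomerisation, was at 1.61 and its second probe at 1.10.

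Cldn8, a claudin, was at 1.28, 1.67, 2.18, 2.01 and 1.27 (adjusted p = 3.48e-06), above every member of the epithelial identity list. Clu, the secreted chaperone clusterin, was at 1.66 (SD 0.23, adjusted p = 9.14e-07), Mmp7, an epithelial matrix protease, at 1.60 (SD 0.33, adjusted p = 5.57e-07) and Ceacam2, an adhesion molecule, at 1.59 (SD 0.43). Calb1, a calcium-binding protein of ducts and neurons, was at 1.53 and Mroh4, a gene of little known function, at 1.62 with 0.91 in pair 1 and 2.18 in pair 4. Aldh1a7, at 1.49, is a close relative of Aldh1a1 and its probe may take up RNA of both. The second probes of Nt5e, Cyp1b1 and Ceacam2 read 0.10, 0.00 and 0.01; they had mean log2 intensities of 5.95, 6.00 and 5.96, near background, and their gene means over probes were 1.02, 0.85 and 0.80.

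**Figure D5:**
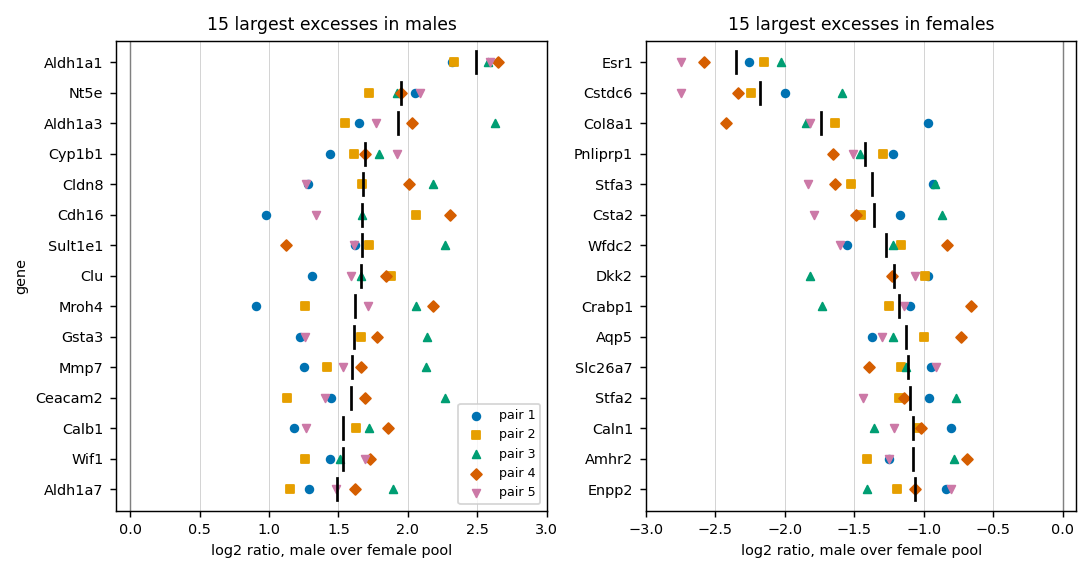
Points give the log2 ratio of male over female pool in each of the 5 pairs and black bars the mean, for the 15 autosomal genes with the largest excess in males (left) and in females (right) among those called with 1 sign in all pairs. Aldh1a1 and Esr1 lead the sides at 2.49 and −2.35.

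The largest excesses in females included the stefin A family, inhibitors of cysteine proteases in squamous epithelium and neutrophils. Cstdc6 had log2 ratios from −2.75 in pair 5 to −1.59 in pair 3 (adjusted p = 4.04e-05), and its 3 probes read −2.18, −2.20 and −2.13. Stfa3 (−1.37), Csta2 (−1.36) and Stfa2 (−1.10) were lower in males too, but the members of this family are near-identical copies on chromosome 16, and their probes may measure the same RNA. Wfdc2, a secreted protease inhibitor of ductal epithelium, was at −1.55, −1.16, −1.22, −0.83 and −1.60 (adjusted p = 4.75e-06), at log2 signals of 12.30 to 12.84 in males and 13.46 to 14.13 in females. Pnliprp1, a pancreatic lipase relative, was at −1.42 (SD 0.17, adjusted p = 0.000128).

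Aqp5, a water channel of glands, was at −1.13 (adjusted p = 1e-06) and Slc26a7, an anion transporter, at −1.11, with a second probe at −0.09 near background. Caln1, a neuronal calcium-binding protein, was at −1.08 with its other probe at −0.65, and Enpp2, the enzyme autotaxin that makes lysophosphatidic acid, at −1.06 (adjusted p = 4.63e-06). The remaining genes of the 15, Col8a1, Esr1, Dkk2, Crabp1 and Amhr2, belong to the lists above. No male pool overlapped a female pool for any of the 15, which the choice of the largest ratios of 1 sign likewise favours.

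Markers of other cell types varied from pair to pair. Skeletal muscle genes had 0 of 22 past the threshold, and the mean of the list was 0.22, −0.41, 1.31, −0.06 and 0.17 in pairs 1 to 5; Mylpf, a fast muscle myosin light chain, reached 2.16 in pair 3. Over the list, the mean log2 signal was 9.34 to 10.55 in male pools and 9.24 to 9.76 in female pools, and 21 of 22 genes were well above background on all arrays. Red blood cell genes had 0 of 9 past, with a mean of 0.65 in pair 3 and −0.32 in pair 5 and mean log2 signals of 7.53 to 8.38 in males and 7.53 to 8.01 in females. Hbb-y, an embryonic globin, was at 2.02 in pair 3. Neuron and Schwann cell genes had 0 of 17 past and stood at −0.49 in pair 3, where Elavl3 was at −0.73; their mean log2 signals were 8.87 to 9.33 and 8.95 to 9.36. Pair 3, which also had the highest epithelial mean, thus differed from the rest in several cell types at once, and the part of these in its ratios was not tested.

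Immune and endothelial genes were lower in males where they passed. All 15 immune cell genes had negative ratios and 6 were lower: Lyz2, lysozyme of macrophages, at −0.53 (adjusted p = 0.0052), the complement genes C1qc (−0.36), C1qa (−0.19) and C1qb (−0.13), Adgre1, the macrophage marker F4/80, at −0.31 and Tyrobp, a myeloid signalling adaptor, at −0.27. Their mean log2 signal was 7.40 to 7.56 in male pools and 7.63 to 7.77 in female pools, and 13 of 15 were well above background on all arrays. Without pair 4 the list had 3 genes lower. Cpa3, a mast cell protease, had the largest ratio of the list among those that missed, at −0.27 and 0.28 in pair 3.

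Of 15 endothelial genes 3 were lower, all of them SoxF transcription factors: Sox17 at −1.15, −0.78, −1.15, −0.61 and −1.22 (adjusted p = 1.33e-05), Sox7 at −0.59 (adjusted p = 9.19e-06) and Sox18 at −0.12, with an adjusted p of 0.162 without pair 3. Cdh5, the cadherin that defines endothelium, did not pass at −0.22 (adjusted p = 0.0621). The mean log2 signal of the endothelial list was 8.31 to 8.59 in male and 8.56 to 8.65 in female pools, and all 15 were well above background. The second Sox17 probe read −0.64 and the third, near background, 0.02. Of 6 cartilage and bone genes 1, Col2a1, was lower at −0.41, with −1.09 in pair 4, and its dimmer second probe read 0.03; the mean log2 signals of that list were 7.61 to 7.84 and 7.78 to 7.88.

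Of 4 mesothelial genes 1 was higher, Msln, which encodes mesothelin, at 0.39, 2.78, 1.36, 0.73 and 0.20 (mean 1.09, adjusted p = 0.0324). Pair 2 held the largest share of this excess; without it the ratio was 0.67, and without pair 3 the adjusted p was 0.0809. Upk3b, another mesothelial gene, was at 1.22 in pair 2 and did not pass. When the 5 pairs were fitted alone, without the DHT arrays, no gene of the list passed. Pair 2 was also the pair in which Krt8, which mesothelium makes as well, stood at 1.19, and the part of mesothelium in that value was not tested. In limma none of the 11 gonad and adrenal, 9 intestine and 18 cell cycle genes passed; Mki67, a marker of dividing cells, was at −0.22 (adjusted p = 0.0898). Mean log2 signals were 6.88 to 6.93 and 6.87 to 6.91 for gonad and adrenal genes, and 6.31 to 6.37 and 6.30 to 6.36 for intestine.

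The ratios between the sexes were compared with those after 12 h of DHT by a contrast in the same fit, which asks where the sex difference at 17.5 dpc departs from the response of female embryos to the given androgen. The comparisons shared no pools but differed in age, and 12 h came from 3 pairs. The first set males against females, and the second set DHT against vehicle within females. In limma 340 autosomal genes differed (1.96%), 291 of them called between the sexes. Aldh1a1 was at 2.49 between the sexes and 0.41 at 12 h, and Esr1 at −2.35 and −0.32, with differences of 2.08 and −2.03 (both adjusted p = 0.000382). Cstdc6 was at −2.18 and 1.11, with an adjusted p of 0.116 at 12 h, and the difference of −3.29 passed (adjusted p = 0.000888). Shh, at 0.60 and 0.49, and Cdh1, at 0.54 and 0.46, did not pass as differences (adjusted p = 0.783 and 0.89), which does not show that they were equal. Without pair 4 of the sexes 212 genes differed.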

How the data were processed

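The deposited scanner files give, for each spot, the intensity and local background in both dyes and a log10 ratio of Cy5 over Cy3; the software was Agilent Feature Extraction, version 7.5.1, per the file headers. The series matrix, also deposited, holds log2 ratios with centring and direction not stated, and served as an alternative. Background correction used normexp with an offset of 50 (limma 3.58.1, R 4.3.3), which shrinks the ratios of dim genes, and was followed by loess within arrays; the package data.table (1.17.8) loaded the scanner output. Spots marked as outliers were set to missing. The 2 dye-swapped arrays of a pair, which share their RNA, were averaged. Probes needed a channel well above background on 6 or more of 24 arrays, and the brightest probe stood for a gene. All 12 pair averages of the series (5 between the sexes, 4 at 6 h and 3 at 12 h of DHT) were fitted together, with 1 coefficient per comparison. Tests were two-sided, with Benjamini-Hochberg adjustment over 24715 genes. SD is over the 5 pairs. Log2 signals of single pools came from the channels after loess and Aquantile normalisation. The number of arrays limits precision.

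Names and chromosomes came from RefSeq (GRCm38.p6); of 41174 probes, 21564 matched by accession, 5363 by symbol and 4597 by synonym, and 9650 kept the name in the file. The 26 gene lists, of which 410 of 426 genes were measured on autosomes, and the members described were chosen with earlier results of these data known. Named were the 15 highest and 15 lowest genes of 1 sign in all pairs, up to 10 called members of each list, the member of each list with the largest ratio that missed, and a set of developmental anchor genes; Cldn6 and the most variable genes of the closing section were added after their values were seen. Some genes that the rule names are not reported here. Of 156 genes named, 103 had a promoter entry. Male and female pools were paired by the labels, as littermates hybridised together, and the ratio within a pair was the unit of the fit. The fit was tested on simulated data. Alternatives changed the background correction, normalisation, probe filter, choice of probe, dye and block terms, covariate, extraction day and pairs used.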

Additional observations from a re-analysis of the deposited data

Results flagged for a closer look

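In 12 of 182 genes and lists tested, 1 pair lay far from the other 4; chance gives about 1 in 20. Pair 4 stood apart in the mean of the smooth muscle list (−0.55), in Srd5a2 (0.80) and in Id3 (0.75). Pair 3 did so in Cyp26a1 (1.41), Trp63 (0.62), Bmp4 (−0.56) and Lyz2 (0.02), the macrophage lysozyme that was lower in the other 4 pairs. Pair 1 had the smallest excess of Fkbp5 (0.41) and Errfi1 (0.50), and pair 2 stood apart in Krt5 (−0.36) and in the mean of the retinoic acid list (0.20). Pair 5 had the largest ratio of Hhip (0.38).

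By the limma contrast, 48 of 156 named genes differed between the male over female ratio at 17.5 dpc and the 12 h DHT ratio. Over all autosomal genes the count was 340 (1.96%). Many named genes were chosen for their ratio between the sexes, which is part of the contrast, so a high share was built in. Values below are the first log2 ratio minus the second. The difference was positive for the retinaldehyde dehydrogenases Aldh1a1 (2.08) and Aldh1a3 (1.53) and for the retinaldehyde reductase Dhrs3 (0.39). Aldh1a7, whose probe may take up RNA of Aldh1a1, had a difference of 1.08. It was positive for the epithelial genes Cdh16 (1.95), Cldn8 (1.54), Mmp7 (1.38), Ceacam2 (1.10) and Psca (0.75). Among bud regulators it was 0.64 for Sox9, 0.60 for Etv4 and 0.39 for Gata3. Gsta3 (1.70), Calb1 (1.62), Clu (1.59), Sult1e1 (1.53), Mroh4 (1.45), Cyp1b1 (1.17) and Nt5e (0.89) went the same way. Of the androgen-responsive genes, Sgk1 differed by 1.00, Fkbp5 by 0.41 and Ndrg1 by −0.86. Wif1 (0.95), Wnt4 (0.75), Sp5 (0.60), Id2 (0.32) and Atoh8 (0.27) had positive differences.

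Differences were negative for the stefin genes Cstdc6 (−3.29), Stfa3 (−2.56), Csta2 (−2.31) and Stfa2 (−1.81), which may share RNA on their probes. They were negative for Esr1 (−2.03), Wfdc2 (−1.31), Pnliprp1 (−1.23), Dkk2 (−1.19), Aqp5 (−1.16), Crabp1 (−1.08) and Caln1 (−1.05). Msx2 (−0.95), Slc26a7 (−0.91), Sox17 (−0.91), Enpp2 (−0.87) and Wnt7a (−0.66) followed, and then Sox7 (−0.53), Prrx1 (−0.52), Inhba (−0.52), Fbln1 (−0.49) and Igf1 (−0.45). These comparisons differed in age, in the sex of the embryos compared and in the source and length of androgen exposure. None of these can be told apart.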

How the results depend on the processing

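Of 1610 autosomal genes called between the sexes, 893 held in all 5 fits that left out 1 pair, in which the counts ran from 992 (without pair 4) to 1570. Epithelial list members called, 30 in all, ran from 16 (without pair 4) to 33 and were 19 without pair 3; mesenchymal members, 44, ran from 33 to 44, and duct members, 7, from 6 to 7. The count of genes that differed from 12 h of DHT, 340, ran from 212 (without pair 4) to 345. The 5 pairs fitted alone, with fewer residual degrees of freedom, gave 761 genes, 19 epithelial and 17 mesenchymal. The epithelial mean as a covariate gave 619, 13 and 16. That covariate is a mean of genes that are themselves counted as epithelial, so the fall in the epithelial count is partly built in. Its slope was shared by all comparisons in the fit. With no replicate block, the channels unpaired, the counts were 471, 12 and 13. Median centring called 17 epithelial genes; the share higher in males was 36.5%, against 49.4%. The contrast with 12 h gave 226 genes with the scanner's own ratio and 671 with a dye term and pair as a random block. That contrast could not be run in the 5 pairs alone or unpaired, and it is not given with the covariate. Of the 156 named genes, none that was called changed sign under the settings run for it; the sign of the other called genes was not followed. The cause of these shifts was not tested. Leaving out the dye-swapped array of pair 1, chosen after seeing the data, gave 1517 genes. Signals near background limit dim genes, whose ratios the offset shrinks.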

Other observations

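The genes whose ratios varied most over the 5 pairs were named after their values were seen, and none of those given here passed the test. Ppbp, a platelet chemokine, was at 4.26 in pair 2 and between −0.18 and 0.94 in the other pairs. Afp, the fetal plasma protein alpha-fetoprotein, was at −0.11, 1.58, 3.38, 1.13 and −0.13 in pairs 1 to 5. The muscle genes Sln, Myh7, Myh8, Myh4 and Apobec2 were all at their highest in pair 3, between 1.95 and 2.16, and all below 0 in pair 2. Ramp2, a receptor partner of endothelium, was at −1.47 in pair 3 and 1.00 in pair 1.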
